A study of Arabidopsis thaliana with 12 samples.

Results

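ORA47 (AT1G74930), MYC3 (AT5G46760) and MYC4 (AT4G17880) are Arabidopsis thaliana transcription factor genes of the jasmonate pathway, each read by 1 probe set of an expression array that named 13356 genes here. The 3 genes were taken by locus identifier, and all 3 were measured. The series holds 12 arrays of leaf RNA from accession Col-0, with no mutant or transgene, in 4 groups of 3. The plants were 5 weeks old, soil-grown, 1 to a pot, with 10 h of light a day. In the first treated group, 40% of leaf 8 had been wounded at its tip, and leaf 13 was collected 1 h afterwards; its controls were leaf 13 of plants left unwounded. In the second, the leaf 8 petiole received 40 µA for 10 s, and that leaf's blade was collected 1 h afterwards; its controls were blades of leaf 8 with a platinum wire in the petiole and no current. The sources used here do not say whether replicates were single plants or pools, so p-values cover the spread among these arrays alone, and that spread may be technical.

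Jasmonates are lipid-derived hormones that accumulate within minutes of wounding. Without the hormone, JAZ proteins hold MYC factors inactive; jasmonoyl-isoleucine makes the receptor COI1 and the JAZ proteins bind each other, the JAZ proteins are degraded, and the MYC factors switch on their targets. MYC3 and MYC4 are basic helix-loop-helix (bHLH) proteins that act together with the better-known MYC2 and bind G-box elements in promoters. ORA47 belongs to another family, the AP2/ERF factors, and is known for activating genes of jasmonate synthesis. The current was applied as an artificial counterpart of the electrical signals that travel out of a wounded leaf.

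All values below are log2 expression values, on which 1 unit is a doubling of signal. Arrays of a group correlated with r from 0.991 to 0.996. Of 5 photosynthesis genes listed as leaf markers, 3 were measured (LHCB4.1, LHCB4.2 and RCA), and they lay between 12.4 and 13.0 on every array. The RNA came from whole leaves or leaf blades with all their cell types, so more RNA per cell and more cells of a type cannot be told apart. Precision is limited by having 3 arrays a group, and an exact permutation test of 3 against 3 arrays cannot go below p = 0.1.

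ORA47 responded most. Its values were 7.64, 7.53 and 7.69 in leaf 13 after leaf 8 was wounded, against 4.26, 4.69 and 3.86 in unwounded leaf 13. The lowest wounded array stood 2.84 above the highest unwounded one. The wounded arrays lay close together (7.62 ± 0.08, SD, n = 3) and the unwounded ones spread more widely (4.27 ± 0.41, SD, n = 3). The change was 3.35 (SE 0.23, limma adjusted p = 1.48e-07), a fold of 10.2 with a 95% interval from 7.23 to 14.4. Ranked by rise, ORA47 was gene 37 of 13356, in a comparison in which limma called 14.2% of all genes, 5.81% higher and 8.42% lower.

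Current also raised ORA47, in the leaf that received it. The values were 5.49, 6.55 and 5.91 with current, against 4.01, 4.42 and 4.03 without. The groups were 1.07 apart at their nearest arrays. The treated arrays differed more among themselves here, at 5.98 ± 0.53 (SD, n = 3) with current and 4.16 ± 0.23 (SD, n = 3) without, replicate 2 of the current group being the highest. The change was 1.83 (SE 0.23, limma adjusted p = 4.29e-04), a fold of 3.55 with a 95% interval from 2.52 to 5.00. The gene again ranked at 37 of 13356 by rise, with 3.96% of all genes called, 2.38% higher and 1.58% lower. Leaving out any 1 array kept the change between 1.54, without current replicate 2, and 2.07.

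**Figure D1:**
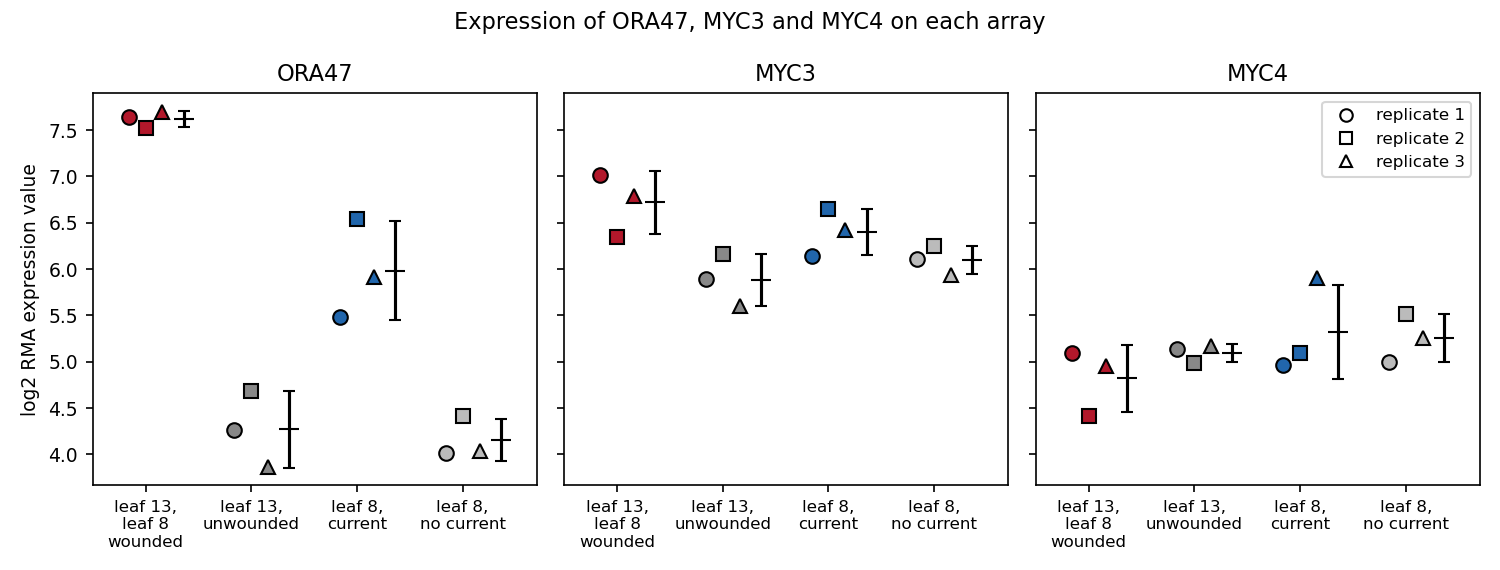
Log2 RMA expression value (y axis) of ORA47, MYC3 and MYC4 on each of the 12 arrays, by group (x axis); marker shape gives the replicate number, and the bar beside each group its mean ± SD (n = 3). ORA47 lies at 7.53 or above in all wounded arrays and at 4.69 or below in all control arrays, while the 4 groups of MYC4 overlap.

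The MYC3 gene rose by less after distal wounding. It stood at 7.02, 6.35 and 6.79 in leaf 13 of wounded plants, against 5.90, 6.16 and 5.60 in leaf 13 of unwounded plants. The groups did not overlap, but the lowest wounded array, replicate 2, was only 0.19 above the highest unwounded one, also replicate 2. The change was 0.83 (SE 0.18, limma adjusted p = 0.00435), a fold of 1.78 with a 95% interval from 1.37 to 2.32. Larger rises were seen in 3.06% of all genes, and groups without overlap were found for 30.3% of all genes. The call held with each array left out, with a change from 0.68 to 1.02.

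After current, MYC3 did not pass the test. It stood at 6.14, 6.65 and 6.42 with current, against 6.11, 6.25 and 5.94 without. The ranges overlapped, current replicate 1 lying among the controls. The change was 0.30 (SE 0.18, limma adjusted p = 0.527), and the 95% interval of the fold ran from 0.95 to 1.61. A rise of up to 1.61-fold, close to the size seen after wounding, therefore lies within the error. Without current replicate 2 the change was 0.18.

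MYC4 passed in neither comparison. Its values were 5.10, 4.41 and 4.95 in leaf 13 of wounded plants, against 5.13, 4.99 and 5.17 in leaf 13 of unwounded plants. The low value of wounded replicate 2 set most of the mean difference of -0.28 (SE 0.22, limma adjusted p = 0.532), which was -0.072 without that array. In leaf 8 the values were 4.97, 5.10 and 5.90 with current, against 5.00, 5.51 and 5.26 without.

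The MYC4 difference after current was 0.067 (SE 0.22, limma adjusted p = 0.951), and it was -0.22 without current replicate 3, the highest MYC4 array of the 12. The 95% intervals allow a MYC4 fold from 0.60 to 1.15 after wounding and from 0.76 to 1.45 after current. A rise as large as that estimated for MYC3 after wounding, at 1.78-fold, lies outside both.

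**Figure D2:**
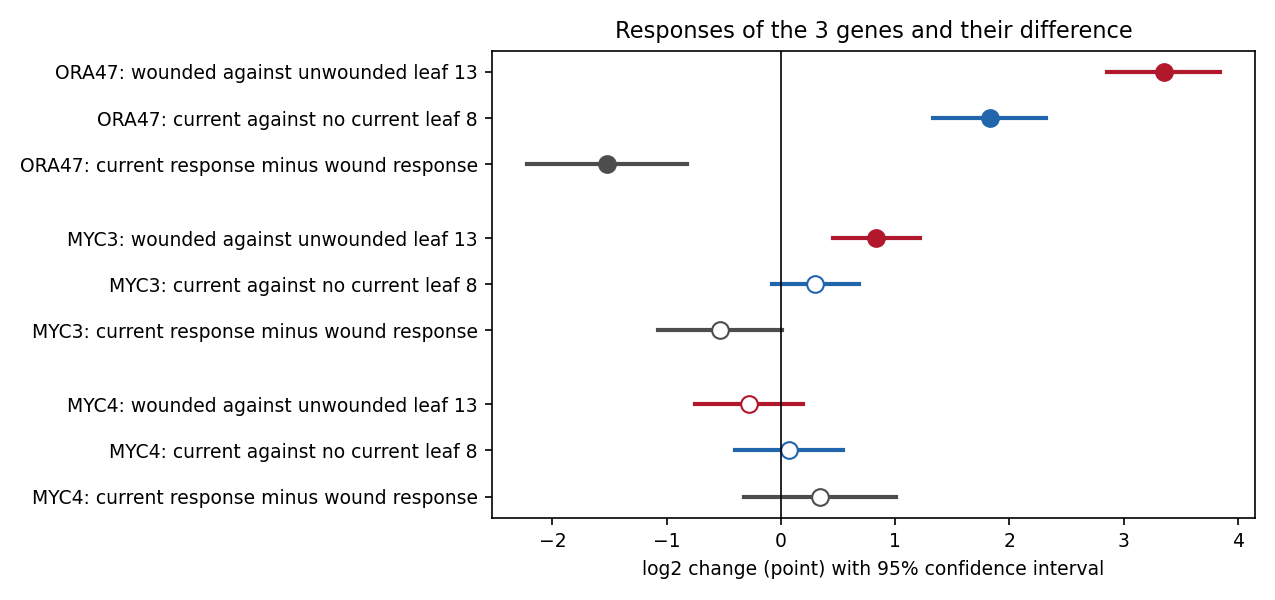
Log2 changes of the 3 genes (points, x axis) with limma's 95% confidence interval (lines) for wounded against unwounded leaf 13, current against no current leaf 8, and the current response minus the wound response; filled points have an adjusted p under 0.05. ORA47 passes in all 3, at 3.35, 1.83 and -1.52, MYC3 in the wound comparison alone, and MYC4 in none.

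Thus of the 3 genes, 2 were called higher after distal wounding and 1 after current, and none lower, where 5.81% and 2.38% of all genes were called higher. Groups did not overlap for 2 genes after wounding and for 1 after current, against 30.3% and 16.9% of all genes. The exact permutation p of ORA47 was 0.1 in each comparison, the smallest possible, and that of MYC3 was 0.1 after wounding and 0.2 after current. For MYC4 it was 0.2 after wounding and 0.9 after current.

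The responses were then set against each other. Both rest on different arrays, leaves and stimuli, so the difference describes these 2 experiments and not the stimuli alone. The ORA47 response to current was smaller than its response to distal wounding, with a difference of -1.52 (SE 0.33, limma adjusted p = 0.0207), where limma called 2.85% of all genes. This call was narrow: it was lost without unwounded replicate 1 or 3, wounded replicate 3 or no-current replicate 2 (limma adjusted p = 0.0546, 0.0572, 0.0603 and 0.0564), at differences of -1.52, -1.32, -1.49 and -1.39. For MYC3 the difference was -0.53 (SE 0.25, limma adjusted p = 0.429) and for MYC4 0.34 (SE 0.31, limma adjusted p = 0.796).

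The change of ORA47 after current was 54.5% of its change after wounding on the log2 scale (SE 7.87 percentage points). Over the 336 genes called higher and at least doubled after wounding, the median share was 46.4%, with quartiles of 33.7% and 59.3%. The share of ORA47 lay between these quartiles and is not particular to it. The 336 genes, ORA47 among them, were chosen by their wound change, which by itself favours lower shares. The share for MYC3 was 36.2% with an SE of 22.7 percentage points, too wide to place it against ORA47. These shares were computed after the changes had been seen.

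The levels gave each gene its own order of groups. For ORA47 the distal wounded leaf was highest and the current leaf next, with no overlap between them or with the controls. Both control groups came last and overlapped, at 4.16 in wired leaf 8 without current and 4.27 in unwounded leaf 13, a difference of -0.11. Leaf position, wire and experiment differ together between those controls, so no test was made. MYC3 followed the order wounded leaf 13, current leaf 8, no-current leaf 8 and unwounded leaf 13, and each group overlapped the next. MYC4 ran from current leaf 8 through no-current leaf 8 and unwounded leaf 13 to wounded leaf 13, again with every neighbour in the order overlapping.

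All 3 genes varied more within groups than most genes did. The SD within groups was 0.36 for ORA47, 0.27 for MYC3 and 0.34 for MYC4, against a median of 0.14 over all genes, and 98.2%, 94.1% and 97.9% of genes varied less. As a description computed after the values had been seen, ORA47 and MYC3 had their highest value on the same array in 3 of 4 groups and their lowest on the same array in 3 of 4. ORA47 and MYC4 shared the highest array in 1 of 4 groups and the lowest in 3 of 4. MYC3 and MYC4 shared the highest array in 2 of 4 groups and the lowest in 2 of 4.

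Few of the other jasmonate pathway genes could be set beside the 3 factors, because a gene counted as measured here only where the platform's gene table gave its probe set that gene alone. Of 85 other genes listed for the pathway and for the families of the 3 factors, 15 were measured. Of these 15, 7 rose after wounding and 0 fell, where 5.81% of all genes were called higher and 8.42% lower, with a median change of 0.28 against -0.034 over all genes. After current, 5 rose and 0 fell, where 2.38% of all genes were called higher and 1.58% lower, with a median of 0.20 against -0.020 over all genes. The lists were chosen with earlier results of these data known, and the 15 measured genes need not represent the 85. None of 13 JAZ repressors, of 7 receptor, adaptor and coactivator genes or of 10 outputs of MYC factors was analysed here.

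Jasmonate synthesis, the process ORA47 is known to activate, was represented by 2 of 17 listed genes. OPCL1, which activates the hormone's precursors in the peroxisome, stood at 10.99, 11.5 and 11.6 in wounded plants' leaf 13, against 7.83, 7.73 and 7.55 in unwounded plants. In leaf 8 it stood at 9.76, 10.6 and 9.87 with current, against 8.14, 8.33 and 8.22 without. The groups did not overlap in either, and the changes were 3.64 (SE 0.19, limma adjusted p = 1.67e-08) and 1.83 (SE 0.19, limma adjusted p = 9.15e-05). OPCL1 thus changed by about as much as ORA47 in each comparison. The lipase gene DGL was at 0.28 (SE 0.12) after wounding and 0.20 (SE 0.12) after current, and passed in neither, although it passed after wounding without wounded replicate 1 (limma adjusted p = 0.0396).

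Turnover of the hormone was represented by 5 of 11 listed genes. After wounding 5 rose and after current 4, where 5.81% and 2.38% of all genes were called higher. JMT, which methylates jasmonic acid, rose by 3.13 (SE 0.15) and 1.74 (SE 0.15). Of the jasmonate oxidases, AT5G05600 (JOX2) rose by 5.80 (SE 0.24) after wounding and 2.87 (SE 0.24) after current, AT2G38240 (JOX4) by 5.09 (SE 0.32) and 2.09 (SE 0.32), and JRG21 (JOX3) by 3.93 (SE 0.39) and 1.89 (SE 0.39).

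The current call of JRG21 was lost when that comparison was fitted alone, with a robust trend or without no-current replicate 1 (limma adjusted p = 0.0911, 0.0760 and 0.0614). AT3G11180 (JOX1) rose by 0.36 (SE 0.087, limma adjusted p = 0.0111) after wounding, which did not pass once unwounded or wounded replicate 2 was left out (limma adjusted p = 0.0529 and 0.0563), and was at 0.20 (SE 0.087) after current. The control levels of AT5G05600 were 6.81, 7.07 and 6.91 in no-current leaf 8 and 4.73, 4.22 and 3.61 in unwounded leaf 13. Leaf position, wire and experiment differ together between these controls, so no test was made.

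Each factor also has relatives, few of which were measured. ORA47 belongs to ERF group II, also called DREB subgroup A-5, of which 6 of 15 listed genes were measured. After wounding 2 of them rose, ORA47 and AT1G19210, and 1 after current, ORA47, where 5.81% and 2.38% of all genes were called higher. AT1G19210 stood at 3.32, 3.30 and 3.51 in leaf 13 of wounded plants, against 2.92, 2.92 and 2.69 in unwounded plants, a change of 0.53 (SE 0.094, limma adjusted p = 0.00103). In leaf 8 it stood at 2.86, 2.81 and 2.81 with current, against 2.90, 2.82 and 2.94 without, a change of -0.059 (SE 0.094). The responses of AT1G19210 differed by -0.59 (SE 0.13, limma adjusted p = 0.0265), and this call did not survive leaving out any 1 of 5 arrays, namely replicate 3 of the wounded, unwounded, no-current and current groups (limma adjusted p = 0.0830, 0.0742, 0.0713 and 0.0575) and no-current replicate 1 (limma adjusted p = 0.0537).

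The other relatives and branches gave no call. The remaining 4 measured genes listed here under ERF group II did not pass in either comparison. Their group means lay between 2.39 and 3.36, where array medians ran from 4.76 to 4.97. AT1G19210, DGL and AT3G11180 also had all group means below those medians. At such low signals a change could be missed or understated. AT4G00870 was the 1 measured gene of 4 in bHLH subgroup IIId, whose members are known as repressors that compete with MYC factors. With low group means, from 2.39 to 2.48, it was at -0.091 (SE 0.12) after wounding and 0.023 (SE 0.12) after current. The current value turned negative with array weights, at -0.056, at -0.020 when no-current replicate 1 was dropped, and at -0.0011 and -0.054 when current replicate 1 or 3 was. The ERF branch is the arm of the pathway with defensins as outputs. Of its 7 listed genes, 2 were measured, and limma called 0 in either comparison, with 0 at an unadjusted p under 0.05. PDF1.2 was at -1.01 (SE 0.74) after wounding and 0.83 (SE 0.74) after current, and PDF1.2b at -0.98 (SE 0.62) and 0.66 (SE 0.62). The median SE over all genes was 0.11. Unwounded replicate 1 stood at 7.62 for PDF1.2 and 8.02 for PDF1.2b, where the other unwounded arrays were at 5.21 or below. With so wide a spread, these tests cannot show that the branch did not respond.

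**Figure D3:**
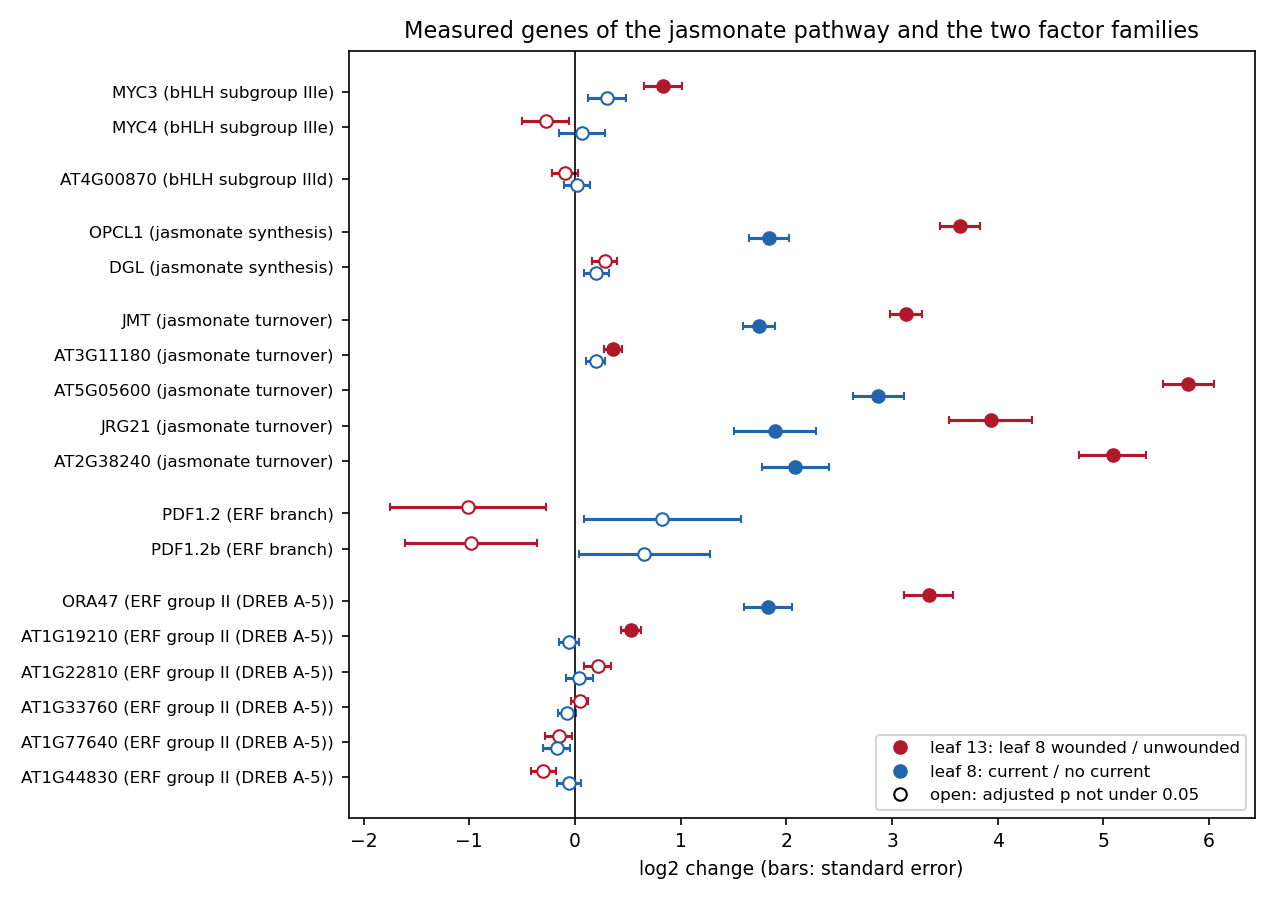
Log2 changes (x axis, bars are ± 1 standard error) of all measured genes of the listed jasmonate groups and factor families, after distal wounding (red) and after current (blue); open points did not pass. ORA47, at 3.35 and 1.83, sits near OPCL1, at 3.64 and 1.83, and far from the other measured genes of its own family. Those genes had low signals, with group means of 3.38 or below.

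The place of each gene in the genome was read from the TAIR10.1 annotation. ORA47 lies on chromosome 1, next to the aldehyde dehydrogenase gene ALDH10A8 on one side and AT1G74940 on the other, with JAZ2, listed as TIFY10B and not analysed here, just beyond. A small locus, AT1G74929, is annotated within ORA47 and has no named probe set of its own here. One neighbour moved against ORA47 and the other with it after wounding. AT1G74940 stood at 5.41, 4.91 and 4.72 in wounded plants' leaf 13, against 6.63, 7.03 and 6.56 in unwounded plants, and fell by 1.72 (SE 0.18, limma adjusted p = 6.89e-06). It stood at 6.73, 6.19 and 6.29 with current, against 7.45, 7.33 and 7.33 without, and fell by 0.96 (SE 0.18, limma adjusted p = 0.00594). ALDH10A8 rose by 0.70 (SE 0.11, limma adjusted p = 2.77e-04) after wounding and was at 0.24 (SE 0.11, limma adjusted p = 0.327) after current.

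MYC3 lies on chromosome 5 and MYC4 on chromosome 4, in stretches that carry matching gene families. Beside MYC3 come AGD9 and then UBP21, and beside MYC4 come AGD8 and then UBP20, on the side where the ARF-GAP genes (AGD) lie. On the other side, PYR1, an abscisic acid receptor gene, is next to MYC4, and the related PYL1 is the third gene from MYC3. Of these, the ubiquitin-specific protease genes UBP20 and UBP21 were measured. UBP20 rose by 0.52 (SE 0.13, limma adjusted p = 0.0155) after wounding, and was at 0.41 (SE 0.13, limma adjusted p = 0.125) after current. The wound call of UBP20 did not hold when wounded replicate 2 was dropped (limma adjusted p = 0.0851), nor when unwounded replicate 1 or 3 was (limma adjusted p = 0.0649 and 0.0526). UBP20 passed after current with array weights (limma adjusted p = 0.0419) and without current replicate 1 (limma adjusted p = 0.0364). UBP21 was at -0.11 (SE 0.12) and -0.13 (SE 0.12). On the far sides, AT5G46770 after MYC3 was at 0.015 (SE 0.096) and -0.060 (SE 0.096), turning to -0.032 and -0.028 after wounding without unwounded replicate 1 or wounded replicate 3, and AT4G17860 before MYC4 was at 0.088 (SE 0.082) and 0.061 (SE 0.082).

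Finally, the genes with the most similar profiles were sought. Each gene was centred on its own mean and the root mean square (RMS) difference from each factor was taken over the 12 arrays. AT4G29700 was closest to ORA47, at an RMS difference of 0.19, followed by AT2G22200 at 0.22, AT5G44050 at 0.23 and JMT at 0.23, where the median gene was at 1.47. AT4G29700 changed by 3.19 (SE 0.21) after wounding and 1.54 (SE 0.21) after current, AT2G22200 by 3.08 (SE 0.29) and 1.73 (SE 0.29), and AT5G44050 by 3.33 (SE 0.24) and 2.05 (SE 0.24). All of these passed in both comparisons. They were chosen for following ORA47 over these same arrays, so this is no separate observation. JMT, at 3.13 and 1.74, is thus the one gene of the listed pathway among the 4.

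MYC3 was matched most closely by AT4G01700 and AT5G44720, both at an RMS difference of 0.17, AT4G17720 at 0.18 and AT1G31130 at 0.19, where the median gene was at 0.44. All 4 rose after wounding, AT5G44720 by 1.02 (SE 0.12), AT4G01700 by 0.75 (SE 0.13), AT4G17720 by 0.68 (SE 0.13) and AT1G31130 by 0.68 (SE 0.14). These genes were chosen for following MYC3 over these same arrays, so their rise is no separate observation. After current AT5G44720 rose by 0.62 (SE 0.12, limma adjusted p = 0.00808) and AT4G01700 by 0.55 (SE 0.13, limma adjusted p = 0.0309), while AT4G17720 and AT1G31130 were at 0.32 (SE 0.13) and 0.30 (SE 0.14). The call of AT4G01700 after current was lost when that comparison was fitted alone (limma adjusted p = 0.0846), when no-current replicate 1 or 3 was dropped (limma adjusted p = 0.0827 and 0.140) and when current replicate 1 or 2 was (limma adjusted p = 0.0634 and 0.150).

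MYC4 was matched by AT1G25520 and AT1G66130, both at 0.17, and by AT3G52740 and AAPT2, an aminoalcoholphosphotransferase gene, both at 0.18, where the median gene was at 0.39. One of them, AT3G52740, passed after wounding. It stood at 5.15, 4.94 and 5.37 in leaf 13 of wounded plants, against 5.68, 5.77 and 5.62 in unwounded plants, without overlap, and fell by 0.54 (SE 0.16, limma adjusted p = 0.0342). Under median centring AT3G52740 did not pass (limma adjusted p = 0.0547), nor when 1 array other than wounded replicate 3 was dropped (limma adjusted p from 0.0660 to 0.155). AT1G66130 was at -0.48 (SE 0.16, limma adjusted p = 0.0583) and passed under 5 alternatives, AT1G25520 was at -0.20 (SE 0.14) and AAPT2 at 0.061 (SE 0.16).

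After current none of the 4 genes nearest to MYC4 passed. The values were 0.13 (SE 0.14) for AT1G25520, 0.0055 (SE 0.16) for AT1G66130, -0.027 (SE 0.16) for AT3G52740 and 0.19 (SE 0.16) for AAPT2, and each changed sign when some 1 array was left out. The 4 genes were chosen for following MYC4 over these same arrays, so their shared high and low arrays are no separate observation. In wounded replicate 2, where MYC4 was at 4.41, AT1G25520 was at 6.29 against 6.52 and 6.52 in the other wounded arrays, and in current replicate 3, where MYC4 was at 5.90, AAPT2 was at 8.11 against 7.37 and 7.47 in the other current arrays.

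**Figure D4:**
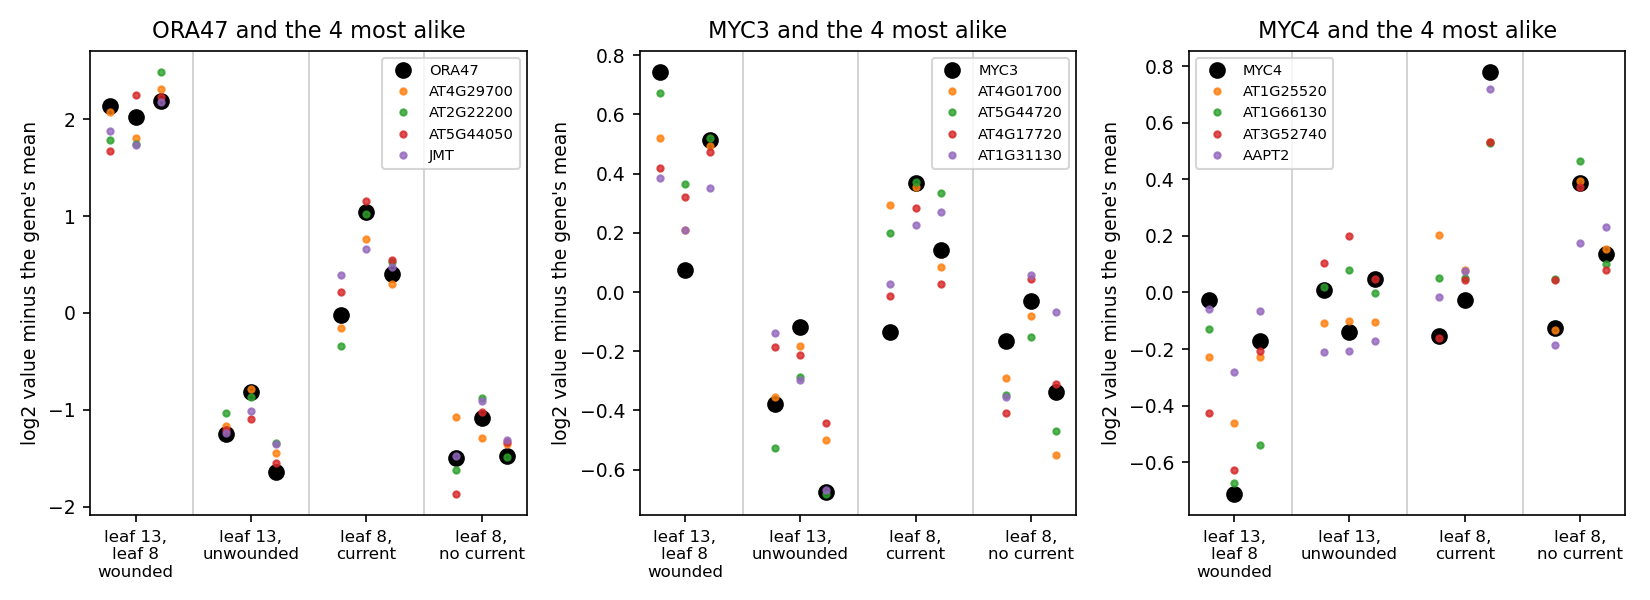
Log2 value minus each gene's own mean (y axis) on the 12 arrays, by group (x axis; replicates 1 to 3 from left to right within a group), for each factor (black) and the 4 genes with the smallest RMS difference from it (colours). The ORA47 panel steps down from wounded leaf 13 to current leaf 8 to both controls, and the MYC4 panel has its highest point at current replicate 3.

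One marker of another tissue moved with the wound comparison. SWEET11, a phloem sucrose transporter gene and the 1 measured of 5 vascular markers, was called lower after wounding, at -0.48 (SE 0.15, limma adjusted p = 0.0477), and was at -0.19 (SE 0.15) after current. Its call was lost with median centring, with the replicate block and without any 1 of the 6 arrays (limma adjusted p from 0.0600 to 0.155). It ranged from 8.04 to 9.49 over the 12 arrays, and its part in the results above was not tested. The 2 measured guard cell markers of 4, the 1 measured trichome marker of 3 and the 1 measured root marker of 3, EXPA7, did not pass in either comparison. The trichome marker TRY was at 0.68 (SE 0.21, limma adjusted p = 0.0978) after current. Both guard cell markers were at -0.32 after wounding (SE 0.16 for FMA and 0.15 for AT1G22690). AT1G22690 averaged 8.56 in wounded and 8.87 in unwounded leaf 13, against 6.48 with current and 6.51 without in leaf 8. The part of this leaf difference in the results was not tested.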

How the data were processed

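Per the submitters' processing notes, the authors made the deposited values with RMA in Affymetrix Power Tools; the sources used here give no versions. RMA corrects background, equalises intensity distributions between arrays and summarises each probe set. The deposited values run from 1.46 to 13.3 and were read as log2 values, although no label states the base. They were used unchanged, with no filter.

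Of 22810 probe sets, 64 were controls; 13513 carried 1 gene in the platform's gene table and gave 13356 genes, probe sets of a gene being averaged. Loci and symbols came from the RefSeq table of TAIR10.1. The array file names no build, so no coordinates are printed.

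limma (version 3.58.1, R version 4.3.3) fitted 1 mean per group over all 12 arrays, with Benjamini-Hochberg adjustment over 13356 genes and a threshold of 0.05. All tests were two-sided. The script was tested on simulated data. The standard error of a share of the wound change is by the delta method. Alternatives were other normalizations, array weights, a robust trend, filters on dim genes, all probe sets, a replicate block and leaving out each array.

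The 3 genes, the lists and the tests were chosen with earlier results of these data known. Besides the 3 genes, the text names measured members of the lists, the nearest measured neighbours and, per factor, the 4 genes of smallest RMS difference.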

Additional observations from a re-analysis of the deposited data

Results flagged for a closer look

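For 7 of the named genes, ORA47 and 6 others, the responses to current and to distal wounding differed by the limma test of the difference itself. All 7 differed towards a smaller value after current. Over all genes limma called 2.85%, 178 higher and 203 lower. All 7 had risen after wounding. The 336 genes called higher and at least doubled after wounding kept a median of 46.4% of that change after current, so the shared direction is not particular to these 7. Those 336 genes were chosen by their wound change, which by itself favours a smaller value after current. ORA47 differed by -1.52 (SE 0.33, limma adjusted p = 0.0207), a call lost in 4 of 12 fits without 1 array. In hormone synthesis and turnover, OPCL1 differed by -1.81 (SE 0.27, limma adjusted p = 0.00177), JMT by -1.39 (SE 0.21, limma adjusted p = 0.00252), AT5G05600 by -2.93 (SE 0.34, limma adjusted p = 6.02e-04) and AT2G38240 by -3.00 (SE 0.45, limma adjusted p = 0.00222). AT1G19210, of the family of ORA47, differed by -0.59 (SE 0.13, limma adjusted p = 0.0265), a call lost in 5 of 12 such fits, and AT4G29700, closest to ORA47 in profile, by -1.65 (SE 0.29, limma adjusted p = 0.00643). AT4G29700 was chosen for following ORA47 over these same arrays, so its difference is no separate observation. The difference did not pass for MYC3 or MYC4, nor for JRG21, at -2.04 (SE 0.55, limma adjusted p = 0.0683), AT2G22200, at -1.35, or AT5G44050, at -1.28. Leaf and experiment differ along with the stimulus, so these cannot be told apart.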

How the results depend on the processing

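ORA47 kept its calls under every alternative run, from 3.15 to 3.56 after wounding and from 1.54 to 2.07 after current, and so did MYC3 after wounding, from 0.68 to 1.02. The ORA47 difference ran from -1.81 to -1.27 without 1 array each and lost its call in 4 of those 12 fits, where it was -1.52, -1.32, -1.49 and -1.39; the cause was not tested. Sign changes after current were limited to values that had not passed. MYC4 turned to -0.036 with array weights and ran from -0.22 to 0.24 without 1 array; AT4G00870 turned to -0.056 and ran from -0.054 to 0.12; AT1G66130 turned to -0.068 and ran from -0.15 to 0.14. Without 1 array AT1G25520 ran from -8.8e-04 to 0.26, AT3G52740 from -0.22 to 0.12 and AAPT2 from -0.045 to 0.32 after current, and AT5G46770 from -0.032 to 0.071 after wounding. With all probe sets tested, limma called 3713, 1185 and 849 for wounding, current and their difference, against 1900, 529 and 381 genes; more features were tested there. Fitted alone, the current comparison gave 291 calls. Leaving out 1 array gave 1405 to 1892, 266 to 728 and 227 to 469 calls. Over all genes, replicate numbers showed no pairing of the samples. Deviations of same-numbered arrays correlated from -0.070 to 0.044, and not every array correlated best with its own number. Such correlations cannot exclude a pairing in single genes. Each group holds every replicate number, so the replicate block could not alter the ORA47 changes of 3.35 and 1.83. With the block the SE of the ORA47 wound change was 0.19, against 0.23 without it. The limma adjusted p of the ORA47 difference was 0.00801 with the block, against 0.0207. With the block 1832, 526 and 382 genes were called. Of 27 other named genes, 367 of 394 values after wounding and 371 of 394 after current kept direction and call, as did 165 of 177 differences. These results cover only genes and differences whose values are printed, a set narrowed after a wider run had been seen. They leave out the ERF branch and the markers other than SWEET11. Over all 33 genes open to naming, 4 of 478 values after wounding, 16 of 478 after current and 18 of 643 differences changed sign, 0 of them of a called value. Genes removed by a filter on dim genes, or with several probe sets, have no value there.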

Other observations

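Replicate 2 of the current group was the highest current array for ORA47 and for MYC3. It was also the highest for 6 of the 7 measured genes of jasmonate synthesis and turnover. Over all genes it was the highest current array for 27.1%, and over the 318 genes called higher after current, which its own values helped to choose, for 75.8%. Without it, ORA47 was at 1.54 and MYC3 at 0.18 after current.

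Of the 20 measured genes nearest to ORA47, 10 on each side, limma called 1 higher and 6 lower after distal wounding, and 0 higher and 1 lower after current. Over all genes, 5.81% were called higher and 8.42% lower after wounding, and 2.38% higher and 1.58% lower after current. Of the 20 nearest to MYC3, 0 were called higher and 1 lower after wounding, and 0 higher and 1 lower after current. Of the 20 nearest to MYC4, 2 were called higher and 3 lower after wounding, and none after current. These windows were chosen after the other results were seen.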
